A study of Mus musculus with 4 samples.

Results

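The replication-dependent histone genes are the protein-coding genes of the deposited table whose symbol starts with Hist1h, Hist2h, Hist3h or Hist4h. The rule found 67 such genes among 31828 genes, of which 18623 are protein-coding, and left out 3 genes with such a symbol but another biotype. RNA was measured in AML12 cells, an established mouse hepatocyte line, with 2 libraries from 2D-cultured cells, which grow on a dish, and 2 from 3D-cultured cells, which grow embedded in Matrigel, a basement membrane extract. The cells of all 4 libraries were grown in a serum medium with insulin, transferrin, selenium and dexamethasone. All of them received 1 mM hydroxyurea, an inhibitor of ribonucleotide reductase that blocks DNA synthesis. The 2D-cultured cells had 24 h of drug and the 3D-cultured cells 36 h, so culture and treatment time cannot be told apart in any result given here. The labels number the replicates but do not say whether they were separate cultures, and the p-values then measure only the spread between these libraries, which may be technical.

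These genes code for the linker histone H1 and for the core histones H2A, H2B, H3 and H4, which package newly made DNA. Their mRNAs are the main animal mRNAs that end in a conserved stem-loop instead of a poly(A) tail. The stem-loop is bound by Slbp, and when DNA synthesis stops these mRNAs are degraded quickly. Libraries made by oligo(dT) selection, as with the kit used here, therefore capture mainly the minor polyadenylated histone transcripts, and the values below describe those captured molecules.

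The stem-loop was looked for in the annotated coding transcripts (GENCODE release M21, GRCm38), on the sense strand, as the 16 letters GGC, any base, CTTTT, any base, AG, any base and GCC. It was found in 42 of the 67 genes (62.7%) and in 3 of 21834 other protein-coding genes (0.0137%), namely Trim17, which overlaps Hist3h2a on the same strand, H2bfm and H2afx. Of the 25 genes without a match, 11 are annotated as coding sequence only, so the window searched there stops at the stop codon. The stem-loops of 6 genes are shown because these genes carry the largest sums or the changes described below. Capitals mark the 16 letters of the motif, and the stem letters differ between the H4 genes and the others.
Hist1h4i (H4, chr13:22040961-22040986, minus strand): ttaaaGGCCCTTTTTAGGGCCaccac
Hist1h4h (H4, chr13:23531453-23531478, plus strand): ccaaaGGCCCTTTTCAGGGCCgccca
Hist1h3b (H3, chr13:23752815-23752840, plus strand): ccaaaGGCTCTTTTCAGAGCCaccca
Hist1h2bp (H2B, chr13:21787918-21787943, plus strand): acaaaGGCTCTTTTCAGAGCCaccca
Hist3h2a (H2A, chr11:58955167-58955192, plus strand): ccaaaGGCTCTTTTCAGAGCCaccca
Hist1h1c (H1, chr13:23739507-23739532, plus strand): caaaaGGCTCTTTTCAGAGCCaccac

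The form in Hist1h3b was the most frequent, in 26 genes of the types H1, H2A, H2B and H3. The form in Hist1h4h was found in 7 genes and that in Hist1h4i in 2, all of them H4. The 3′ ends of the annotated transcripts divided these genes further. In 21 genes the transcript ends at most 100 bases after the stem-loop, and in the other 21 it runs on past that point. The letters AATAAA or ATTAAA, the usual polyadenylation signals, lie in the last 50 bases of an annotated transcript of 17 genes (25.4%), against 78% of the other protein-coding genes. In the 11 genes annotated as coding sequence only, a signal past the stop codon could not be found. The last 30 bases are shown for a transcript of 5 genes with a signal, since the genes are grouped by this end further on. Capitals mark the signal.
Hist1h2bp (chr13:21789184-21789213, plus strand): ttataaaAATAAAggtttcaatctatccca
Hist1h4a (chr13:23760692-23760721, minus strand): aAATAAAccttgagtgcctttggagaattg
Hist1h1c (chr13:23740338-23740367, plus strand): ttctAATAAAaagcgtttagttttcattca
Hist2h2be (chr3:96223709-96223738, plus strand): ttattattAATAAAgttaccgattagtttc
Hist1h4i (chr13:22040636-22040665, minus strand): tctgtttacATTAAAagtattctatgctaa

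The values are TPM, transcript abundances corrected for length and relative within a library, so the sequencing depth is unknown and no counting interval can be given. Between 13891 and 14256 genes reached 1 TPM in a library, and the Pearson correlation of log2(TPM + 1) over the tested genes, which are not independent replicates, was 0.991 between the 2D libraries, 0.992 between the 3D libraries and 0.951 to 0.952 between cultures. Of the 10 hepatocyte markers, 9 reached a mean of 1 TPM and were tested as described below, with a call at a limma adjusted p under 0.05. Of these, 3 were lower in 3D (log2 fold changes of -0.82 for Krt8, -0.91 for Krt18 and -0.46 for Apoe), 5 higher (4.24 for Ttr, 3.54 for Trf, 2.62 for Alb, 1.47 for Hnf4a and 1.03 for Apoa1) and Afp was not called. Among all tested genes, 27.1% were lower and 23.4% higher. Alb (albumin) lay at only 0.819 and 1.20 TPM in 2D and 12.7 and 10.0 TPM in 3D, and Serpina1a at most at 0.0768 TPM. All 5 endothelial markers stayed under 1 TPM, as did 5 of 6 fibroblast markers and 3 of 6 macrophage markers (Ptprc, Adgre1 and Csf1r), while Des was lower (log2 fold change -0.91) and Cd14 higher (1.25) in 3D. The other macrophage markers, Cd68 at 19, 18.3, 25.5 and 21.4 TPM over the 2D and then the 3D libraries and Lyz2 at a mean of 1.34 TPM, were not called.

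Histone RNA was lower in the 3D-cultured cells as a sum and for most of the measured genes. The 67 genes together held 1416 and 1326 TPM in the 2D libraries and 874 and 882 TPM in the 3D libraries. That is 0.142% and 0.133% of all TPM in 2D against 0.0874% and 0.0882% in 3D. Both 3D sums lay below both 2D sums, and the ratio of the means was 0.64 (log2 ratio -0.64). Since these are bulk samples, fewer cells making histone RNA and less histone RNA per cell cannot be told apart.

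Of the 67 genes, 55 reached a mean of 1 TPM over the 4 libraries and were tested with limma on log2(TPM + 1), with p-values adjusted by Benjamini-Hochberg over all 14116 genes tested. At an adjusted p under 0.05, 32 were lower in 3D, 2 were higher and 21 were not called. The share of lower genes was 58.2%, against 27.1% of all tested genes, and for higher genes the background was 23.4%. The median log2 fold change of the tested histone genes was -0.58, with a range from -1.53 to 1.18, beside -0.04 for all tested genes. For 11 histone genes the called fall exceeded 1 on the log2 scale, and 3.83% of all tested genes fell that far. In 38 histone genes both 3D libraries lay below both 2D libraries, in 4 they lay above and in 13 the cultures overlapped, where 41.6% of all tested genes lay below and 35.9% above.

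The 12 histone genes left out of the test had means from 0.0759 to 0.835 TPM, and no library gave them more than 1.38 TPM. They were Hist1h1a, Hist1h1t, Hist1h2aa, Hist1h2ba, Hist1h4f, Hist2h2aa1, Hist2h2ab, Hist2h2ac, Hist2h2bb, Hist2h3b, Hist3h2ba and Hist4h4. Hist1h1t, Hist1h2aa and Hist1h2ba are known as testis forms. A listed 0, as for Hist2h2ab in both 2D libraries, can be a failed estimate.

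**Figure D1:**
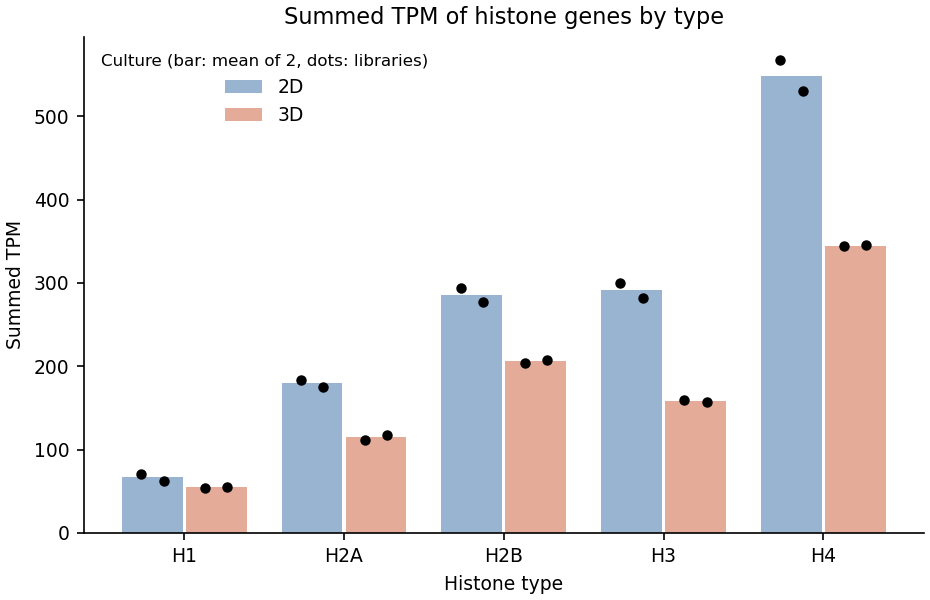
Summed TPM (linear axis from 0) of the histone genes by type in 2D and 3D culture, with bars for the mean of 2 libraries and dots for single libraries. For each of the 5 types both 3D libraries lie below both 2D libraries, and H3 has the lowest ratio of 3D to 2D, 0.545.

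By type, H3 fell furthest and H1 least. The H3 genes summed to 300 and 282 TPM in 2D and to 160 and 157 TPM in 3D (log2 ratio -0.88), and 9 of 11 tested were lower. H4 held the most RNA, with 567 and 530 TPM in 2D and 344 and 345 TPM in 3D (-0.67). The H4 genes were split, with 6 of 11 tested lower and 1 higher. H2A summed to 184 and 175 TPM in 2D and to 112 and 117 TPM in 3D (-0.65), with 9 of 14 tested lower. H2B summed to 294 and 277 TPM against 204 and 208 TPM (-0.47), with 6 of 15 lower and 1 higher. H1 gave 70.7 and 62.4 TPM against 54.3 and 54.9 TPM (-0.28), with 2 of 4 lower. The share of lower genes was 81.8% in H3, 64.3% in H2A, 54.5% in H4, 50% in H1 and 40% in H2B, against 27.1% of all tested genes, so H2B stood nearest to the background. The differences between types were not tested, and each type held genes of quite unequal level.

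A single gene carried much of most of these sums. Hist1h4i gave 51.3% of the H4 sum in 2D and 38.9% in 3D, and without it the H4 log2 ratio was -0.35. Hist1h2bc gave 53.4% and 44.5% of the H2B sum, and without it the ratio was -0.22. Hist1h1c gave 72.4% and 81.0% of the H1 sum, and without it the H1 ratio was -0.83. The order of the types thus depended on which gene stood highest. The shares were smaller for H3, where Hist1h3i gave 32.4% and 36.6% and the ratio without it was -0.97. In H2A, Hist3h2a gave 29.7% and 33.9%, and the ratio without it was -0.74.

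**Figure D2:**
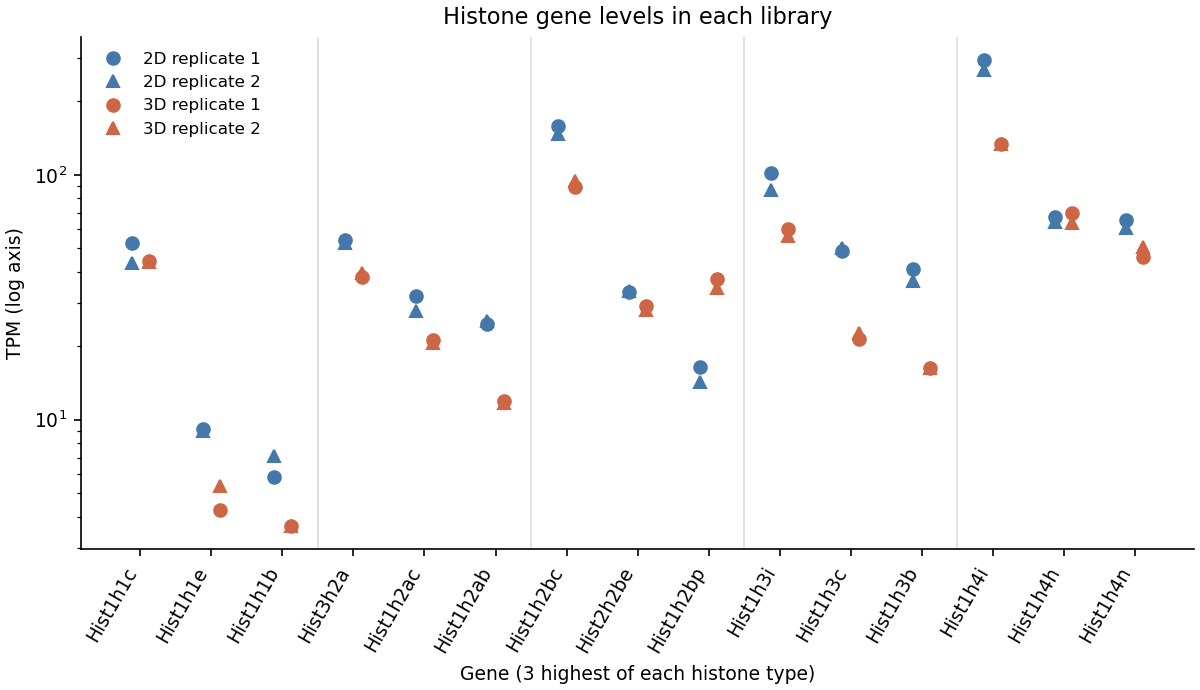
TPM (log axis) of the 3 histone genes with the highest mean in each type, one point per library, with circles for replicate 1 and triangles for replicate 2 and grey lines between the types H1, H2A, H2B, H3 and H4. Hist1h4i stands highest at 294 and 269 TPM in 2D, and Hist1h2bp is the only gene shown whose 3D libraries both lie above its 2D libraries.

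H4 is the most conserved core histone. Among its genes, Hist1h4i (chr13:22040636-22041362, minus strand) had 294 and 269 TPM in 2D and 134 in each 3D library. The 3D libraries sat far below the 2D libraries, and the gene fell by 1.06 on the log2 scale (SE 0.05, n = 2 per culture, limma adjusted p = 0.000465). Hist1h4n had 65.2 and 60.7 TPM in 2D and 46.3 and 50.5 TPM in 3D, again without overlap (log2 fold change -0.37, SE 0.07, limma adjusted p = 0.0119). Hist1h4h, at nearly the same level, had 67.3 and 64.4 TPM in 2D and 69.8 and 63.8 TPM in 3D. Here the cultures overlapped and no difference was called (0.02, SE 0.06, limma adjusted p = 0.827). Hist1h4k fell from 47.6 and 42.0 TPM to 18.9 and 20.3 TPM (-1.15, SE 0.08, limma adjusted p = 0.000949). Hist1h4a went the other way, with 21.3 and 20.6 TPM in 2D and 27.2 and 24.4 TPM in 3D (0.29, SE 0.08, limma adjusted p = 0.0355). This rise was small, and it lost its call when 2D replicate 1 (adjusted p = 0.0797), 2D replicate 2 (0.108) or 3D replicate 1 (0.153) was left out.

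H3 forms a tetramer with H4, and the 3 highest H3 genes all fell. Hist1h3i had 102 and 86.9 TPM in 2D and 59.9 and 56.2 TPM in 3D (log2 fold change -0.69, SE 0.09, limma adjusted p = 0.00433). Hist1h3c fell from 48.8 and 50.3 TPM to 21.3 and 22.6 TPM (-1.14, SE 0.06, limma adjusted p = 0.000494), and Hist1h3b from 41.2 and 36.9 TPM to 16.2 TPM in each 3D library (-1.22, SE 0.08, limma adjusted p = 0.000666). None of these genes overlapped between the cultures. Of all tested genes, 77.5% did not overlap, and 41.6% lay below in 3D. Hist1h3g (27.8 and 30.3 against 12.5 and 13.5 TPM, log2 fold change -1.10) and the low Hist1h3a (4.53 and 4.12 against 1.45 and 1.15 TPM, -1.21) fell as far. The H3 genes that were not called were Hist1h3e at 10.5 and 11.8 against 12.9 and 9.77 TPM (0.02) and Hist1h3h at 5.47 and 5.34 against 4.55 and 2.94 TPM (-0.45).

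Among the H2A genes, whose product pairs with H2B, Hist3h2a (chr11:58954685-58956830, plus strand) was the highest, with 54.0 and 52.5 TPM in 2D and 38.2 and 39.6 TPM in 3D. It fell by 0.44 on the log2 scale (SE 0.05, limma adjusted p = 0.0032), and its annotated position overlaps Trim17 on the same strand, so the split of reads between the genes is uncertain. Hist1h2ac had 32.0 and 27.7 TPM in 2D and 21.1 and 20.6 TPM in 3D (-0.49, SE 0.09, limma adjusted p = 0.0105). The steeper falls were in lower genes. Hist1h2ab went from 24.6 and 25.2 TPM to 11.9 and 11.7 TPM (-1.02, SE 0.06, limma adjusted p = 0.000683). Hist1h2ap went from 19.2 and 16 TPM to 4.56 and 6.37 TPM (-1.53, SE 0.17, limma adjusted p = 0.00281), the largest fall of any tested histone gene on the log2(TPM + 1) scale, although the ratio of mean TPM was 0.31 here and 0.301 for Hist1h3a. Only 7.35% of the 75-base windows of the Hist1h2ap transcript occur in no other gene, so its reads may be shared with near-identical copies. Hist1h2af went from 6.41 and 7.38 TPM to 2.79 and 2.51 TPM (-1.11).

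The H2B genes held the gene with the clearest rise. Hist1h2bc had 158 and 147 TPM in 2D and 88.8 and 94.3 TPM in 3D (log2 fold change -0.73, SE 0.06, limma adjusted p = 0.00119). Hist2h2be, on chromosome 3, had 33.2 and 33.5 TPM in 2D and 29 and 28 TPM in 3D (-0.22, SE 0.06, limma adjusted p = 0.0291), a call that was lost without any one of the 4 libraries (adjusted p from 0.0742 to 0.138). Hist1h2bp (chr13:21787461-21789213, plus strand) had 16.4 and 14.2 TPM in 2D and 37.7 and 34.4 TPM in 3D. Both 3D libraries stood far above both 2D libraries, and the gene rose by 1.18 on the log2 scale (SE 0.10, limma adjusted p = 0.00119), to 36.0 ± 2.32 TPM (SD, n = 2) from 15.3 ± 1.55 TPM. It was the only histone gene that rose by more than 1, as did 4.37% of all tested genes. Its annotation holds a transcript that ends soon after the stem-loop and a spliced one that ends past it with AATAAA, both shown above in part. Hist1h2bg fell from 22.2 and 22.5 TPM to 9.49 and 9.10 TPM (-1.18), and Hist1h2bf from 7.57 and 8.31 TPM to 2.38 and 4.15 TPM (-1.10). The call for Hist1h2bf was lost without 2D replicate 1 (adjusted p = 0.0684) or 2D replicate 2 (0.0842).

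H1, the linker histone, is coded by fewer genes. Hist1h1c (chr13:23738808-23740367, plus strand) had 52.6 and 43.7 TPM in 2D and 44.3 and 44.2 TPM in 3D. The 3D libraries lay between the 2D libraries, and no difference was called (log2 fold change -0.11, SE 0.10, limma adjusted p = 0.385), although without 2D replicate 2 it was (-0.24, adjusted p = 0.0414). Hist1h1e fell from 9.17 and 8.99 TPM to 4.28 and 5.37 TPM (-0.80, SE 0.12, limma adjusted p = 0.00652). Hist1h1b fell from 5.84 and 7.12 TPM to 3.68 TPM in each 3D library (-0.67, SE 0.12, limma adjusted p = 0.0107), a call that was lost without 3D replicate 1 (adjusted p = 0.0513) or 3D replicate 2 (0.0504). Hist1h1d stayed between 1.10 and 1.22 TPM in all libraries (0.02).

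By position, lower genes were found in every cluster that could be tested, and among all tested genes 27.1% were lower and 23.4% higher. The Hist1 cluster on chromosome 13 holds 54 of the genes, of which 49 were tested. Of these, 28 (57.1%) were lower and 2 higher, with a median log2 fold change of -0.59. The cluster lies in 2 stretches, chr13:21715763-22043676 with 23 genes and chr13:23531050-23934851 with 31 genes. In the first stretch 10 of 23 tested genes (43.5%) were lower and 1 higher (median -0.56). In the second, 18 of 26 (69.2%) were lower and 1 higher (-0.72). Hist1h4a, in the second stretch, stood between Hist1h4b and Hist1h3a, which both fell, whereas neither tested neighbour of Hist1h2bp in the first stretch, Hist1h2an (0.32) or Hist1h2bq (-0.58), was called. Only 15.4% of the sequence windows of Hist1h2an and 3.92% of those of Hist1h2bq occur in no other gene, so their reads may be shared. The Hist2 cluster on chromosome 3 had 5 tested genes of 10, of which 3 (60%) were lower (median -0.22). Hist3h2a on chromosome 11 was the only tested gene of its cluster, and Hist4h4 on chromosome 6 was listed at 0.308 and 0.250 TPM in 2D and 0.0636 and 0.109 TPM in 3D.

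**Figure D3:**
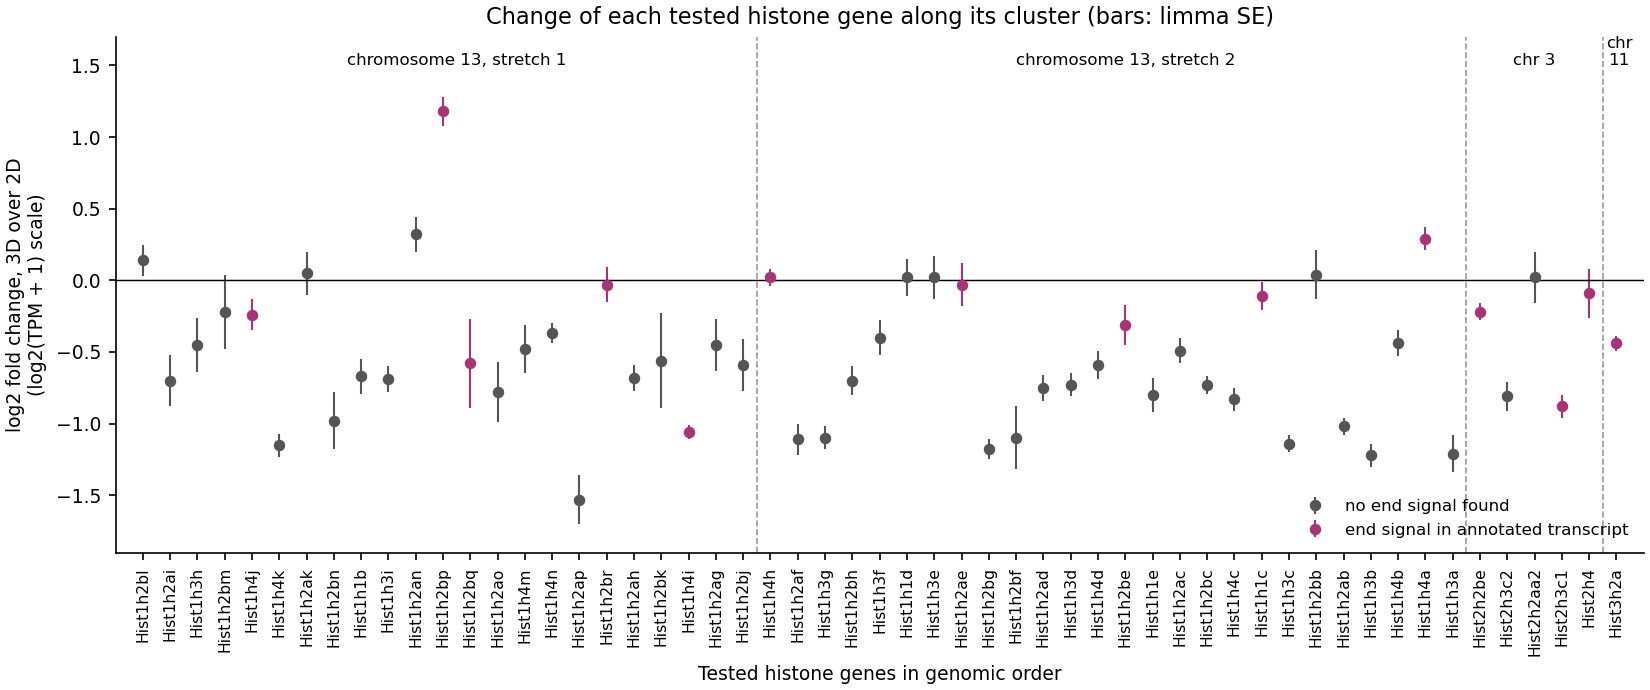
Log2 fold change of 3D over 2D (on the log2(TPM + 1) scale) of each of the 55 tested histone genes in genomic order, with bars for the limma standard error, magenta points for genes whose annotated transcript holds an end signal and grey points for the others. Dashed lines part the 2 stretches of chromosome 13 and chromosomes 3 and 11. On this scale the lowest point is Hist1h2ap at -1.53 and the highest is Hist1h2bp at 1.18, both in the first stretch.

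Many of these genes stand head to head, sharing the short stretch of DNA between their starts. There were 13 such divergent pairs with at most 1000 bases between the genes (175 to 659 bases), and in 11 both genes were tested. Both genes fell in 3 pairs (Hist1h2bh and Hist1h3f, Hist1h2bf and Hist1h2ad, Hist1h2ac and Hist1h2bc). In 6 pairs a lower gene stood beside a gene that was not called. Among the tested histone genes 58.2% were lower, and among all tested genes 27.1%. Whether paired genes changed together more often than other histone genes was not tested. In the pair with the shortest gap, 175 bases, Hist1h2bg fell by 1.18 while Hist1h2ae had a log2 fold change of -0.03. Hist1h2ap (-1.53) stood 235 bases from Hist1h2br (-0.03). The neighbour of Hist1h2bp (1.18) at 242 bases, Hist1h2an, had 2.36 and 1.96 TPM in 2D and 2.94 and 2.92 TPM in 3D (0.32, limma adjusted p = 0.0896). Few sequence windows of Hist1h2ap (7.35%), Hist1h2br (12.4%) and Hist1h2an (15.4%) occur in no other gene. The contrasts with these genes may therefore depend on how shared reads were split. The shares were higher for Hist1h2bg (52.6%), Hist1h2ae (65.6%) and Hist1h2bp (63.1%). The last pair of tested genes, Hist1h2ag and Hist1h2bj, had no call.

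The promoters of 60 of the 67 genes were matched in RefSeq (GRCm38.p6). They are not all separate sequences. The bases before the starts of head-to-head genes overlap, so the same CCAAT can be counted for both genes of a pair. The letters CCAAT, the binding motif of the factor NF-Y, stood on either strand in the 250 bases before the start of 49 of the 60 (81.7%), against 33.8% of 32788 other promoters. This share did not hold for H4, where only Hist1h4a, Hist1h4c and Hist1h4d of the matched genes had the letters. Most of the genes without them were H4 genes, and the others were Hist2h3c1 and Hist2h3c2 of type H3. TATAA on the sense strand, 40 to 20 bases before the start, stood in 16 of 60 (26.7%) against 3.47%. The 120 bases before the start are shown for an H3 gene that fell by more than 1 on the log2 scale, the highest gene, the gene that rose and the H1 gene that was not called, with capitals for CCAAT or its reverse complement ATTGG and for TATAA.
Hist1h3b (chr13:23752225-23752344, plus strand): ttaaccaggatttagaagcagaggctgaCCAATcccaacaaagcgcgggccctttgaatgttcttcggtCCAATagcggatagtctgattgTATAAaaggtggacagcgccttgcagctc
Hist1h4i (chr13:22041363-22041482, minus strand): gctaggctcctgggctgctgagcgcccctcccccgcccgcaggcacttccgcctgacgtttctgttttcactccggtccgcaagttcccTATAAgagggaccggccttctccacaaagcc
Hist1h2bp (chr13:21787368-21787487, plus strand): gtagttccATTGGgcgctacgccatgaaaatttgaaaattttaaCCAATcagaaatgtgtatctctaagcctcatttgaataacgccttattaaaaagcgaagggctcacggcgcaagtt
Hist1h1c (chr13:23738687-23738806, plus strand): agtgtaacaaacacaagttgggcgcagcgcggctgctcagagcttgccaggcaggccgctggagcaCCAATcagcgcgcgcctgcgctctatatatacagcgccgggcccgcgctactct

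The histone genes with an end signal in their annotated transcript had a median change nearer 0 than those without. This grouping was chosen after the values were seen and was not tested. A missing signal can also mean an annotation that stops early, and 8 tested genes without one are annotated as coding sequence only. Of the 14 tested genes with a signal, 4 (28.6%) were lower, 2 higher and 8 not called, beside 27.1% lower and 23.4% higher among all tested genes. The median log2 fold change of the 14 was -0.17, with a range from -1.06 to 1.18. Of the 41 without a signal, 28 (68.3%) were lower, none was higher and 13 were not called, with a median of -0.69 and a range from -1.53 to 0.32. Both genes that rose, Hist1h2bp and Hist1h4a, and the high but uncalled Hist1h4h and Hist1h1c had a signal, but so did Hist1h4i, which fell by 1.06.

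Other properties moved with the end signal. The genes with it had a median mean level of 18.1 TPM, a median transcript length of 1255 bases and a median of 67.5% unique windows, against 6.25 TPM, 508 bases and 43.4% for those without. Among genes with a mean of at least 5 TPM, the 12 with a signal had a median log2 fold change of -0.17 and the 25 without -0.73. Among genes with at least 50% unique windows, the medians were -0.11 for 11 genes and -0.69 for 18. Among transcripts that run more than 100 bases past the stem-loop, they were -0.31 for 7 genes and -0.70 for 11. The part of level, length and sequence sharing in the difference was not tested beyond these values. The medians were -0.57 in 36 tested genes with a stem-loop match and -0.58 in 19 without. Of these 19, 8 are annotated as coding sequence only, so a stem-loop past the stop codon could not be found. The split therefore cannot show whether the stem-loop goes with a difference.

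**Figure D4:**
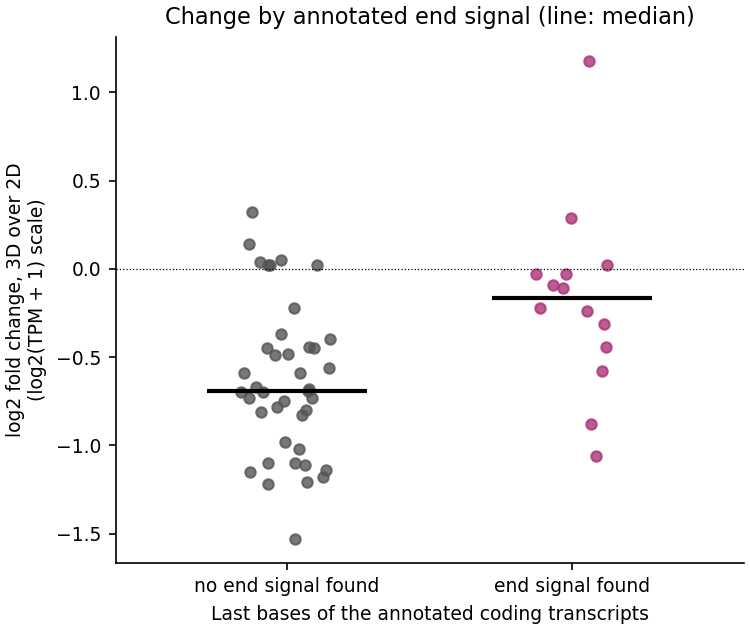
Log2 fold change of 3D over 2D (on the log2(TPM + 1) scale) of the 55 tested histone genes, split by whether AATAAA or ATTAAA lies in the last 50 bases of an annotated coding transcript. Points are genes, spread sideways only for legibility, and lines are medians, at -0.69 for 41 genes without and at -0.17 for 14 genes with the signal.

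Gene families this alike limit what a single row can show. Between coding sequences of equal length, the median nucleotide identity was 96.4% in H2A, 97.2% in H2B, 97.2% in H3 and 93.9% in H4, and each of these types held at least 1 identical pair. Of the 67 genes, 28 had fewer than 50% unique 75-base windows and 7 overlapped another gene on the same strand. The 28 include genes described singly above, such as Hist1h4n (16.6%), Hist1h3i (21.7%), Hist1h2af (29.5%) and Hist1h4k (31.9%). Hist1h3b (41.4%), Hist1h2bf (43.4%) and Hist1h2ab (44.6%) are also among them. Their values, and the contrast of Hist1h4n with Hist1h4h (57.6%), may depend on how shared reads were split. Among the 29 tested genes with at least 50% unique windows, 17 (58.6%) were lower and 2 higher (median -0.44). Among the 26 with fewer, 15 (57.7%) were lower and none higher (-0.68). Of all tested genes, 27.1% were lower and 23.4% higher.

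The genes that act on histone mRNA were read from lists in the same fit. Of the 19 genes for 3′ end processing, 6 were lower and 3 higher (median log2 fold change -0.06), shares not far from the 27.1% lower and 23.4% higher of all tested genes. Slbp, which binds the stem-loop, had 71.3 and 69.7 TPM in 2D and 52.7 and 53.7 TPM in 3D (-0.40, SE 0.05, limma adjusted p = 0.00306). The Sm proteins Snrpb (-0.21), Snrpe (-0.58), Snrpg (-0.58) and Snrpf (-0.38), which the histone processing U7 particle shares in part with the spliceosome, were also lower, and the scaffold Sympk was not called (-0.06). Other U7 proteins, named after their values were seen, did not fall in this way. Snrpd3 (-0.08) and Lsm11 (0.10) were not called, and Lsm10 was higher (0.37, limma adjusted p = 0.0138). Clp1, an RNA kinase named here after its values were seen, was higher, at 6.10 and 6.23 TPM in 2D and 17.7 and 19.4 TPM in 3D (1.45, SE 0.08, limma adjusted p = 0.000568).

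Of the 13 genes for histone gene transcription, 3 were lower and 1 higher (median -0.10), where 27.1% of all tested genes were lower and 23.4% higher. Npat, the coactivator that gathers at histone loci, had 26.1 and 28 TPM in 2D and 25 and 25.1 TPM in 3D, a difference that was not called (-0.10, SE 0.07, limma adjusted p = 0.238). Hinfp, the H4 gene factor, was not called either (-0.10). Ccna2, the S and G2 phase cyclin A2, fell by 0.81, Gon4l fell by 0.24 and Yy1, a zinc finger factor, rose by 0.43. Of the 17 genes for histone mRNA decay, 10 were lower and 1 higher (median -0.32), again beside 27.1% and 23.4%. The helicase Upf1 fell by 0.20 and the Lsm ring subunits Lsm4 by 0.64, Lsm3 by 0.47 and Lsm5 by 0.47, while the uridylyltransferase Zcchc6 was not called (0.07). Without 3D replicate 1 or 3D replicate 2 5 decay genes were called lower.

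Of the 22 histone chaperone and assembly genes, 9 were lower and 4 higher (median -0.11), against 27.1% and 23.4% of all tested genes, so the higher ones were no more frequent than in the background. Ssrp1, a subunit of FACT, fell by 0.40, Hjurp, the Cenpa chaperone, by 0.56 and Mcm2 by 0.14, whereas Nap1l1 (-0.03) and Rbbp7 (-0.08) were not called. No chaperone gene was called higher without 3D replicate 1, and only 1 without 3D replicate 2. The replication-independent histone variants, whose mRNAs are mostly polyadenylated, were split, with 4 of 9 tested lower and 3 higher (median -0.21, same background). H1f0, the linker variant of resting cells, had 136 and 129 TPM in 2D and 235 and 229 TPM in 3D (0.80, SE 0.05, limma adjusted p = 0.000578), and its libraries did not overlap. Cenpa, the centromeric H3 variant, went from 235 TPM in each 2D library to 128 and 120 TPM (-0.92, SE 0.05, limma adjusted p = 0.000447). H3f3b fell by 0.44 and H2afj by 0.21, and H2afz was not called (-0.36). H2afx, which carries the stem-loop and was named for that after its values were seen, had 66.0 and 66.1 TPM in 2D and 48.0 and 49.1 TPM in 3D (-0.44, SE 0.05, limma adjusted p = 0.00244).

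The DNA replication genes moved with the histone genes. Of 32 tested, 31 were lower and none was higher (median -0.54, against 27.1% lower among all tested genes), with Rfc1 not called (limma adjusted p = 0.96). Their summed level was 2212 to 2266 TPM in 2D and 1491 to 1508 TPM in 3D. Rrm1 and Rrm2, the subunits of the enzyme that hydroxyurea inhibits, fell by 0.96 and 0.52, Mcm7 by 0.48 and Pcna by 0.27. The part of S phase content, and that of the longer treatment in 3D, in the histone values was not tested.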

How the data were processed

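RNA-seq of oligo(dT)-selected RNA from AML12 cells was analysed, with 2 libraries of 2D-cultured and 2 of 3D-cultured cells grouped by their labels. Reads had been trimmed (cutadapt 1.8.3, Trimmomatic 0.36) and mapped to GRCm38 by HISAT2 2.0.5 in stranded mode without soft clips. StringTie 1.3.4 then gave gene abundances on the Ensembl 93 annotation. The authors deposited 1 TPM column for each library, which keeps no depth. The log2 fold changes and p-values of the authors' DESeq2 comparison, also in the table, were not used. How StringTie split reads between near-identical or overlapping histone genes affects single values.

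Genes with a mean of at least 1 TPM (14116) were compared in limma 3.58.1 (R 4.3.3) after taking log2(TPM + 1) (eBayes with trend and robust variance, culture as the only factor, two-sided, Benjamini-Hochberg over all tested genes). The fold changes on this scale understate the change of low genes. With 2 libraries per culture, exact permutation p-values cannot go below 0.333. Transcripts came from GENCODE M21, whose positions equal those of all 67 genes, and promoters from RefSeq (GRCm38.p6), searched from 250 bases before the start. Sequence windows of 75 bases were called unique when found in no other gene's transcripts. Python 3.11.15, pandas 2.3.3 and matplotlib 3.10.9 were used.

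The members, lists and tests were chosen with earlier results of these data known. Values in every library are given for the 3 highest genes of each histone type and for called genes with a change of more than 1 on the log2 scale. Of each list, the 5 highest genes, Slbp and Npat were named, and genes named beyond this were chosen after their values were seen. As alternatives, the pseudocount was set to 0.1 or 5 and the filter dropped or raised to 5 TPM, beside centring, quantile normalization, rescaling without mitochondrial and the 20 highest genes, a replicate block, a constant prior variance, a GC and length correction by splines with 5 degrees of freedom, other thresholds, genes with at least 50% unique windows, sums without the highest gene and each library left out. Those of the lists, of the end signal and of single genes were added after the data were seen. The replicate numbers did not pair the libraries (correlation of same-numbered deviations -0.05 over 14116 genes). On simulated data for 3D against 2D with 14116 genes, of which 200 were changed, 96% of 4-fold and 71% of 2-fold changes were recovered, and 2.91% of 172 calls were wrong. The changed genes were drawn only from those above a minimum level and were far fewer than the 7122 genes called in the real data. These rates therefore need not hold for the real data or for low histone genes. The study's Hi-C data were not analysed here.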

Additional observations from a re-analysis of the deposited data

How the results depend on the processing

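The median log2 fold change of the histone genes (-0.58) was -0.70 with a pseudocount of 0.1 and -0.36 with 5, -0.45 with no filter, -0.68 with a filter of 5 TPM, -0.47 after the GC and length correction, -0.44 over genes with at least 50% unique windows, and -0.64 to -0.51 with a library left out. For genes without an end signal (-0.69) it was, in the order of the first 5 of these settings, -0.77, -0.44, -0.59, -0.73 and -0.62, then -0.67 after quantile normalization or rescaling, -0.73 over genes of at least 5 TPM and -0.73 to -0.66 with a library left out. The 32 lower genes became 11 with a fold threshold of 1, 17 over genes with at least 50% unique windows and 25 to 29 with a library left out. The 2 higher genes became 1 with no filter, at an adjusted p under 0.01 or with the fold threshold, and the highest count under any alternative was 3. Lower decay genes numbered 6 with no filter and 5 to 8 with a library left out, higher ones 0 to 1, and higher chaperone genes 0 to 5. Over all genes 4720 to 5954 were called with a library left out, fewest (4720) without 3D replicate 1.

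Without the highest gene the log2 ratios of sums were -0.83 (H1), -0.74 (H2A), -0.22 (H2B), -0.97 (H3) and -0.35 (H4), and with a library left out -0.37 to -0.19 (H1, nearest 0 without 2D replicate 1) and -0.72 to -0.62 (H4). Hist1h1c lay between -0.24 (without 2D replicate 2) and 0.02 (without 2D replicate 1), and Hist1h4h between -0.05 (without 3D replicate 1) and 0.08 (without 3D replicate 2), with -0.01 without 2D replicate 2. The cause of these shifts was not tested. Of 348 values of 25 single genes under alternatives, 328 kept their direction and side of the threshold, and 3 reversed direction.

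With the replicate block, 6248 genes were called, 33 histone genes were lower and 2 higher, and Hist2h2be lost its call (-0.22, limma adjusted p = 0.0725). The numbers only name the libraries, and a call lost under the block is no weaker effect. TPM keep no depth, so no limit from counting error can be given.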
